A study of Mus musculus with 2 samples.

Results

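The muscle acetylcholine receptor subunits were examined as 6 genes, Chrna1, Chrnb1, Chrnd, Chrng, Chrne and Chrna9, out of 15621 genes with a symbol that were measured on both arrays. Members were found by gene name among the probes outside the control classes, and every probe of each gene was kept, which gave 10 probes of 41174. Chrna1, Chrnb1, Chrnd and Chrng were 4.31- to 330-fold higher in denervated than in control gastrocnemius, Chrna9 was 108-fold higher, and Chrne was 3.30-fold lower. These are the values of each gene's brighter probe. By their dimmer probes Chrng was 19.9-fold and Chrna1 9.12-fold higher. The dimmer Chrna9 probe gave only a bound, at least 59.8-fold higher. Control signals of Chrng and Chrna9 were near background, so the sizes of their differences are uncertain.

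The samples were gastrocnemius muscle, from the calf, of male wild-type C57BL/6 mice aged 9 weeks. The denervated group had been denervated for 14 days from the age of 7 weeks, and the other group served as controls, called sham in a single label only. RNA of 6 mice was pooled per group, with 1 array for each pool. No difference has a replicate check, and no test was possible. How the muscle was denervated is not given in the sources used here.

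The muscle acetylcholine receptor is a ligand-gated cation channel of the postsynaptic membrane, built as a pentamer. In the fetal form the alpha, beta and delta subunits are joined by gamma, and in the adult form by epsilon. Nerve activity is known to hold subunit gene transcription down along the fibre outside the synapse, and loss of the nerve is known to bring back the fetal gamma subunit. Chrna9 encodes a subunit of another kind, known from cochlear hair cells, where it assembles with the alpha 10 subunit.

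Transcription of the muscle subunit genes is known to depend on myogenic factors that bind E-boxes, short promoter motifs of the form CANNTG. The N-box, CCGGAA, is known for synaptic expression of the epsilon gene. RefSeq promoters (GRCm38.p6) matched 5 of the 6 members and are shown because 4 of these 5 genes were higher and 1 was lower. Each is the 250 bases before the annotated start, and capitals mark every CANNTG and every CCGGAA (or TTCCGG, its reverse complement). CANNTG has the same form on both strands, CAGCTG is 1 of its versions, and no marked motif overlaps another.
Chrna1, chr2:73580339-73580588, minus strand: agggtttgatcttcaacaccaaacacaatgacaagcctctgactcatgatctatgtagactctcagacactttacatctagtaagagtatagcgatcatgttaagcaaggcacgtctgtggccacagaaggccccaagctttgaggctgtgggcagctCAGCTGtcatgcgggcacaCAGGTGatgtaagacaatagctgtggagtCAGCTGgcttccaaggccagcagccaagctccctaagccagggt
Chrnb1, chr11:69795938-69796187, minus strand: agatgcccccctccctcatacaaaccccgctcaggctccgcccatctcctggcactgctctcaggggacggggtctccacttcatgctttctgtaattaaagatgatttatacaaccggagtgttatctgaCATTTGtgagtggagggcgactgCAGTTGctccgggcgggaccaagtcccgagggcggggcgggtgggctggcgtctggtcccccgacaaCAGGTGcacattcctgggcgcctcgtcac
Chrng, chr1:87205561-87205810, plus strand: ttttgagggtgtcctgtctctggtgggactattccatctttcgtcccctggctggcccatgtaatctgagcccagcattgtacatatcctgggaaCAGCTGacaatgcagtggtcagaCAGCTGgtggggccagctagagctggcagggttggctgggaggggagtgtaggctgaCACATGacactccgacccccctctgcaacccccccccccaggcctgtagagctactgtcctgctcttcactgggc
Chrne, chr11:70619195-70619444, minus strand: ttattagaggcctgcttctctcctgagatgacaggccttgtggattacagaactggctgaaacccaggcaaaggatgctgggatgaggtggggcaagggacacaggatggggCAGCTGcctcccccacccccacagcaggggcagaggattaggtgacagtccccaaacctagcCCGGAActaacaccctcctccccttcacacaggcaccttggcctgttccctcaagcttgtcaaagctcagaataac
Chrna9, chr5:65966874-65967123, plus strand: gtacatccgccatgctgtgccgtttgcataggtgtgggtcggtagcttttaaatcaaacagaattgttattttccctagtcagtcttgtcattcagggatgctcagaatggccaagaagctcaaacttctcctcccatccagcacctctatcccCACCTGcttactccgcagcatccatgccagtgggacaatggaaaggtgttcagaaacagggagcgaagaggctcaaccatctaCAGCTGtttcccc

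The Chrna1, Chrnb1 and Chrng windows each hold 3 CANNTG motifs, against 12.2% of 32851 RefSeq promoter windows of this length with at least 3. In Chrna1 they begin 92, 73 and 44 bases before the start, and in Chrng 155, 132 and 75 bases before it. Chrna1 and Chrng each hold 2 copies of CAGCTG, where 1.26% of windows hold at least 2. Chrne and Chrna9 each hold 1 copy, where 13% of windows hold at least 1, and Chrnb1 holds none. The Chrna9 window has 2 CANNTG motifs (31.8% of windows have at least 2) and the Chrne window has 1 (66.2% have at least 1). Among these 5 genes the CCGGAA motif was found in Chrne alone, 76 bases before its start, and 12% of all windows hold it on either strand. A motif match describes the letters and is no evidence of binding.

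The arrays were of one colour and their values are processed spot intensities in scanner units, called signal here. Of all probes, 70.9% were well above background in the control pool and 68.4% after denervation, with 14.5 and 17.9 as the lowest such signals. Log2 differences are denervated minus control after each array was scaled to its 75th percentile (788 and 1063), and the value after ± is the scanner software's spot error, which is technical only. For bright spots nearly all of it is a preset error of 10% of the signal, not a spread seen in these data. Measured here means well above background on each of the 2 arrays and saturated on neither. All 10 listed skeletal muscle fibre markers were measured on both, with the troponins Tnnc2 at -0.50 ± 0.20 and Tnnt3 at -0.21 ± 0.20 as the brightest; without scaling Tnnt3 was at 0.22. Each pool had its own place on 1 slide, so slide place and group cannot be told apart. In whole muscle, fewer cells of a type and less RNA per cell cannot be told apart either.

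**Figure D1:**
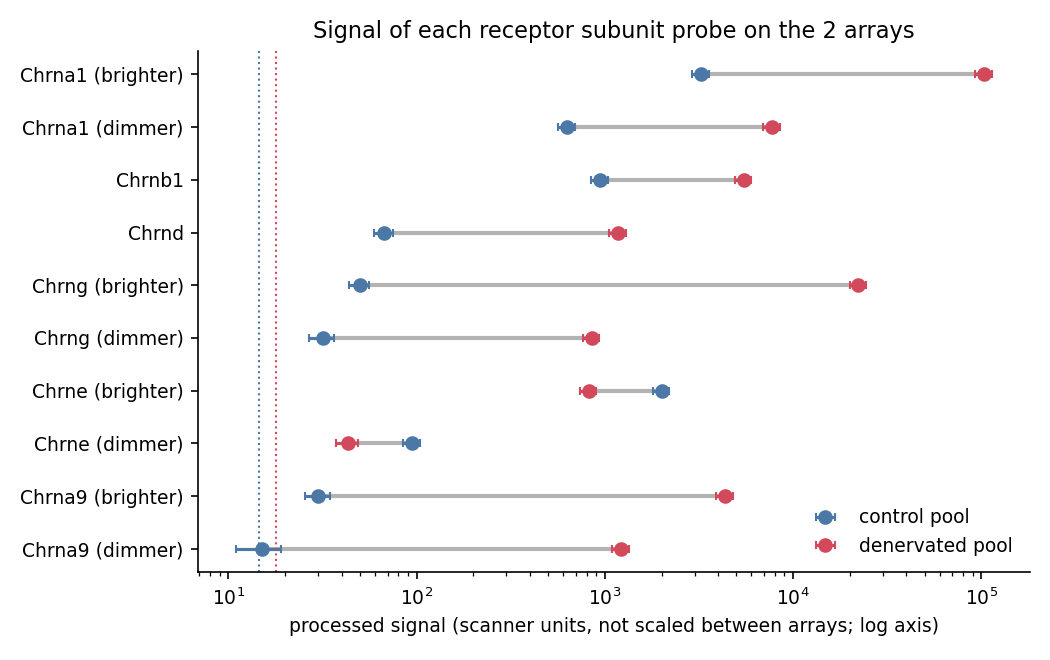
Processed signal of the 10 subunit probes (log axis, scanner units, before scaling between arrays) in the control pool (blue) and the denervated pool (red), with the software's spot error as bars and the lowest signal well above background on each array as dotted lines. The Chrne probes lie lower in the denervated pool and the other 8 lie higher; levels of different probes are not comparable with each other.

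Chrna1, which encodes the alpha subunit that carries the acetylcholine binding sites, had a control signal of 3238 and a denervated signal of 103557 by its brighter probe (NM_007389, chromosome 2, 73366894 to 73366953, mm8). The denervated signal was far above the control one, a log2 difference of 4.57 ± 0.20, or 23.7-fold. Its dimmer probe, 3′ of the other on the minus strand at 73364172 to 73364231, had signals of 627 and 7723, a difference of 3.19 ± 0.20. Both probes were thus higher in the denervated pool, and their differences lay 1.38 apart. A gap at least this wide was found in 4.93% of the 5919 genes with 2 or more measured probes, whose median gap was 0.29.

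Chrnb1, the beta subunit, had a control signal of 939 and a denervated signal of 5459. It was 2.11 ± 0.20 higher, or 4.31-fold, the smallest difference among the 5 higher members. Its single probe maps to chromosome 11 over 569 bases (69601367 to 69601935, mm8), more than the probe's length of 60, so it crosses at least 1 intron in the genome. Chrnd, the delta subunit, had a control signal of 67.2 and a denervated signal of 1176. The difference was 3.70 ± 0.22, or 13-fold, by 1 probe on chromosome 1 at 89030049 to 89030108.

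Chrng, the fetal gamma subunit, had a control signal of 49.9 and a denervated signal of 22201 by its brighter probe (chromosome 1, 89042737 to 89042796, mm8). The control signal was near background, at 3.43 times the lowest detected signal after scaling, and the denervated one was bright. The difference of 8.37 ± 0.23 (330-fold) ranked 1 of 15621 genes. Its dimmer probe, which crosses at least 1 intron at 89040668 to 89040949, had signals of 31.6 and 849, a difference of 4.31 ± 0.26 (19.9-fold). The direction was the same by both probes, but the sizes lay 4.05 apart. A gap at least as wide was found in 5 of the 5919 genes, Chrng included. With the mean of its probes Chrng ranked 8, and with the dimmer probe alone 24. The brighter Chrng and Chrna1 probes were read on the denervated array from the scanner's lower-gain scan and scaled up, and on the control array from the higher-gain scan. This was so for 530 spots in all, and its part in these results was not tested.

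Chrne, the adult epsilon subunit, was the one member with a lower signal in the denervated pool. Its signal was 2001 in controls and 819 after denervation by the brighter probe (chromosome 11, 70431084 to 70431143, mm8), a difference of -1.72 ± 0.20, or 3.30-fold lower. The dimmer probe at 70434610 to 70434669 had signals of 94.4 and 43, a difference of -1.57 ± 0.25. The probes differed by 0.15, less than their technical error. With spike-in scaling, which moves every gene up by 0.40, the Chrne difference was -1.32, and without scaling -1.29.

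Chrna9 had a control signal of 29.9 and a denervated signal of 4345 by its brighter probe (chromosome 5, 66256346 to 66256405, mm8). It was 6.75 ± 0.26 higher, or 108-fold, and ranked 7 of 15621 genes. The control signal was near background, at 2.06 times the lowest detected signal after scaling. With normexp background correction the difference was 5.07 and the rank 14. The other probe, at 66256118 to 66256177, had a control signal of 15, which was not well above background, and a denervated signal of 1215. That probe was at least 59.8-fold higher after denervation, a bound set against the higher of its own control signal and the lowest detected one. The array design names both probes after a predicted transcript, XM_132045. Chrna10, whose product pairs with alpha 9 in hair cells, had signals of 47.3 and 36.5 (-0.81 ± 0.30).

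**Figure D2:**
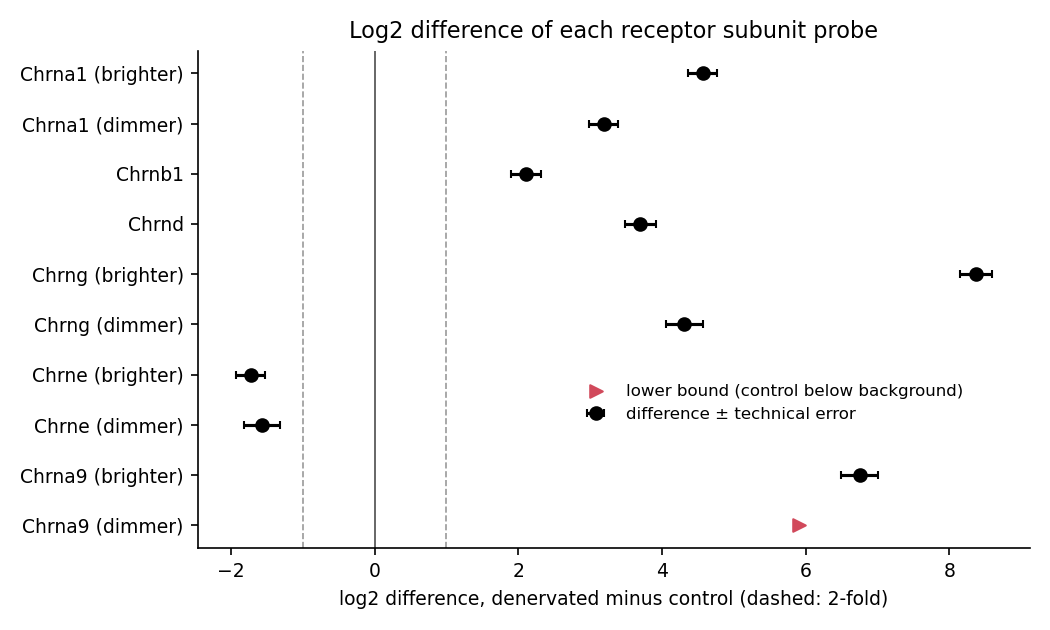
Log2 difference, denervated minus control, of each probe, with the technical error as bars and dashed lines at 2-fold; the triangle is a lower bound for the dimmer Chrna9 probe. Of 9 probes with a difference, 7 lie above 2-fold and the 2 Chrne probes lie below it.

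By gene, 5 of the 6 members were at least 2-fold higher after denervation, where 6.93% of all 15621 genes were, and 1 was at least 2-fold lower, where 8.59% were. At 16-fold or more, 3 members were higher (Chrng, Chrna9 and Chrna1), against 0.237% of all genes. That count depends on the setting. Chrnd, at 3.70, also passed 16-fold with spike-in scaling (4.10), and Chrna1 did not pass it by its dimmer probe (3.19). The median over the 6 members was 4.13, beside -0.11 over all genes. With spike-in scaling 14.4% of all genes were at least 2-fold higher and 4.15% lower, and the members' counts were still 5 and 1.

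The sizes of the differences were unequal. In falling order the differences were those of Chrng, Chrna9, Chrna1, Chrnd, Chrnb1 and Chrne, and each gap between neighbours in that order exceeded its technical error. The narrowest gap, Chrna1 over Chrnd, was 0.87 ± 0.30, and the widest, Chrnb1 over Chrne, was 3.83 ± 0.29. The order depends on the probe: by their dimmer probes Chrng (4.31) and Chrna1 (3.19) lay below the Chrna1 value of 4.57 and the Chrnd value of 3.70, respectively.

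The gamma and epsilon subunits take the same place in the pentamer, so their differences were set against each other. The log2 difference of Chrng exceeded that of Chrne by 10.09 ± 0.30, a value that a common scaling factor cannot move. Over the 4 combinations of their probes it ranged from 5.88 to 10.09, a 58.9- to 1088-fold shift of gamma relative to epsilon. The shift shows unequal change and gives no ratio of the transcripts themselves. Against Chrne, Chrna1 was shifted by 6.29 ± 0.29, Chrnd by 5.42 ± 0.30 and Chrnb1 by 3.83 ± 0.29.

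**Figure D3:**
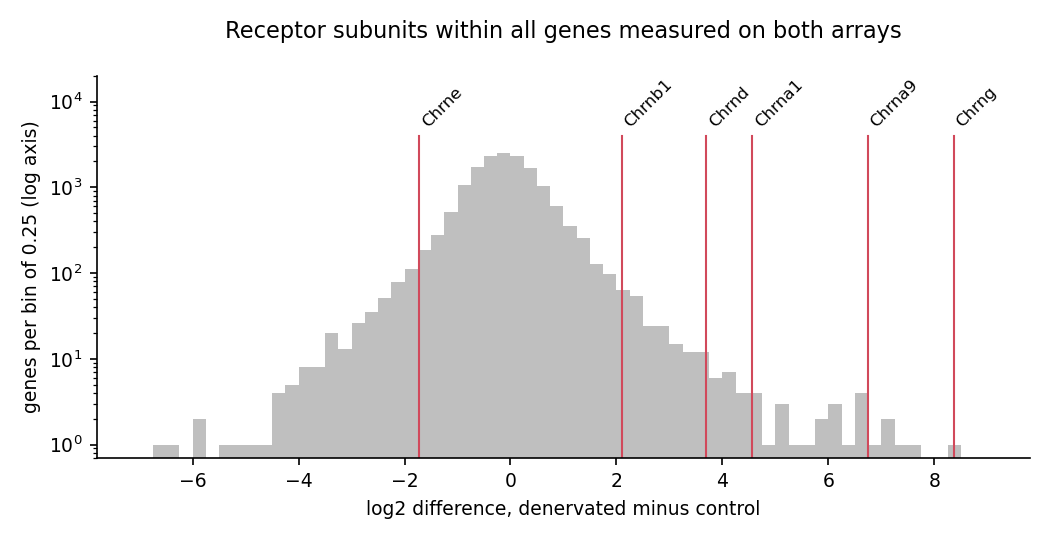
Histogram of log2 differences, denervated minus control, of the 15621 genes measured on both arrays (log axis for genes per bin of 0.25), with the 6 members as red lines. Chrng stands at the right end at 8.37 and Chrne within the left flank at -1.72.

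The genes whose log2 difference was nearest to each member's were found over the 2 arrays, by the absolute gap between differences. Other members and genes with Rik, LOC, Gm or accession names were left out of this search and of its counts. No other gene lay within 0.2 of Chrng by its brighter probe (8.37). Among the nearest were the keratin gene Krt18 (7.54) and the carboxylesterase gene Ces2c (7.17). Nearest to Chrna9 were Orm2 (6.72), Plekhh1 (6.70) and Ankrd1 (6.56), and to Chrna1 the potassium channel gene Kcnk5 (4.66), Orm1 (4.69) and the cell-cycle inhibitor gene Cdkn1a (4.69). Chrnd had 13 genes within 0.2 of it, led by Cgref1 (3.67), Serpinb1a (3.72) and Lpin2 (3.74). Around Chrnb1 there were 104, led by Myc, Sh3rf1 and Ctsl, and around Chrne 210, led by Ocrl, Olfr713 and Itm2a. With 2 arrays this likeness is a single number per gene, and for some it rests on the probe. By the smallest-difference probe Kcnk5 was at 0.62, Myc at 0.76, Sh3rf1 at 0.77 and Ocrl at -0.88. Members with more than 1 probe were placed by the brighter one. By their dimmer probes Chrng was at 4.31 and Chrna1 at 3.19, away from the genes named here.

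Chrnd and Chrng are direct neighbours among the protein-coding genes of chromosome 1. The genes next to the members were looked up after the values were seen. None of the 7 measured neighbours that are no members was 2-fold lower, where 8.59% of all genes were. At least 2-fold higher were 2 of the 7, against 6.93% of all genes. The higher ones were Eif4e2, a cap-binding protein gene after Chrng (1.28 ± 0.20, but 0.09 by its smallest-difference probe), and Rhoh, a small GTPase gene of blood cells before Chrna9 (1.01 ± 0.29, but 0.09 with another background correction). Rbm47, after Chrna9, was above background in the denervated pool only and at least 5.04-fold higher. The other 5 lay between -0.86 and -0.24. They were Wipf1 and Chn1 beside Chrna1, Zbtb4 and Fgf11 beside Chrnb1, and Mink1 beside Chrne.

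Other genes of cholinergic signalling and of subunit gene control were taken from 7 lists of 65 genes, of which 47 were measured. At least 2-fold higher were 8 of them and at least 2-fold lower 9, where the shares over all genes were 6.93% and 8.59%. With spike-in scaling, and also without scaling, 10 were higher and 6 lower. Of the other nicotinic subunits, which are mostly neuronal, 6 of 10 were not well above background on either array, and 3 were measured, with a median of -0.81. None of these 3 was 2-fold higher. Chrna4 was at -1.04 ± 0.30, from signals of 49.1 and 32.1, and at -0.65 with spike-in scaling. Chrna2 passed background in controls alone, with signals of 58.3 and 4.11, and was at least 4.39-fold higher there. Of 5 muscarinic receptors, 2 were measured, and Chrm1 was at -1.29 ± 0.21, or within 2-fold at -0.89 with spike-in scaling.

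Receptor clustering genes, which gather receptors under the nerve terminal, had 2 of 11 members at least 2-fold higher and 1 lower, with a median of 0.26. Musk, the kinase that agrin activates through Lrp4, was higher, from a control signal of 197 to a denervated signal of 1331 (2.32 ± 0.21). The cytoskeletal linker Macf1 was at 1.14 ± 0.20. The dystrobrevin gene Dtna was lower at -1.15 ± 0.20, although its 4 probes ranged from -1.48 to 0.80, and it was within 2-fold at -0.75 with spike-in scaling. The remaining 8, among them Rapsn (0.36), Lrp4 (0.37), Dok7 (0.17) and Agrn (-0.14), stayed within 2-fold.

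Of 8 measured genes for receptor assembly and Ly6-type modulators, none was 2-fold higher and 2 were 2-fold lower (median -0.52). Lynx1, a membrane-anchored modulator of nicotinic receptors, had a control signal of 15540 and a denervated signal of 2394, a difference of -3.13 ± 0.20. Its relative Lypd6 was at -1.85 ± 0.21 by the brighter probe and -0.76 by the other. Lypd6b was above background in the denervated pool only (signals of 3.97 and 129, at least 6.60-fold higher). The chaperone gene Tmem35a passed background in controls alone and was at least 2.53-fold lower after denervation. The chaperone gene Ric3 was at -0.92 ± 0.24.

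Among 7 genes of acetylcholine synthesis, storage and breakdown, 3 were measured and 2 of these were at least 2-fold lower. Ache, the esterase that ends transmission, had signals of 591 and 160 (-2.32 ± 0.21), and its membrane anchor Prima1 had 68.7 and 34.1 (-1.44 ± 0.30, but -0.88 with normexp background correction). The nerve terminal genes Slc5a7 and Slc18a3 were not well above background on either array. Chat passed background in controls alone, with signals of 24.9 and 19.5 (at least 1.72-fold lower after denervation). Of the neuregulin list, Erbb3 was at 1.11 ± 0.20, Erbb2 and Erbb4 stayed within 2-fold, and Nrg1 passed background in controls alone (at least 2.54-fold lower after denervation).

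Of 17 measured transcription regulators of subunit genes, 5 were at least 2-fold higher and 2 lower, with a median of 0.13. Of the myogenic E-box factor genes 3 were higher, and Myf5 was not well above background on either array. Myog had signals of 422 and 23030 (5.34 ± 0.20), Myod1 635 and 5596 (2.71 ± 0.20), and Myf6 16100 and 100100 (2.20 ± 0.20). Id2, which encodes an inhibitor of such factors, was also higher at 1.54 ± 0.20. Their E-protein partners Tcf12 (0.23) and Tcf3 (0.17) stayed within 2-fold. The deacetylase gene Hdac4, known to be induced by denervation, was at 2.86 ± 0.20, and Hdac9 and the corepressor gene Dach2, both known to restrain Myog, were at -2.14 ± 0.21 and -2.27 ± 0.25. The N-box factor genes Gabpa (-0.21) and Gabpb1 stayed within 2-fold.

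**Figure D4:**
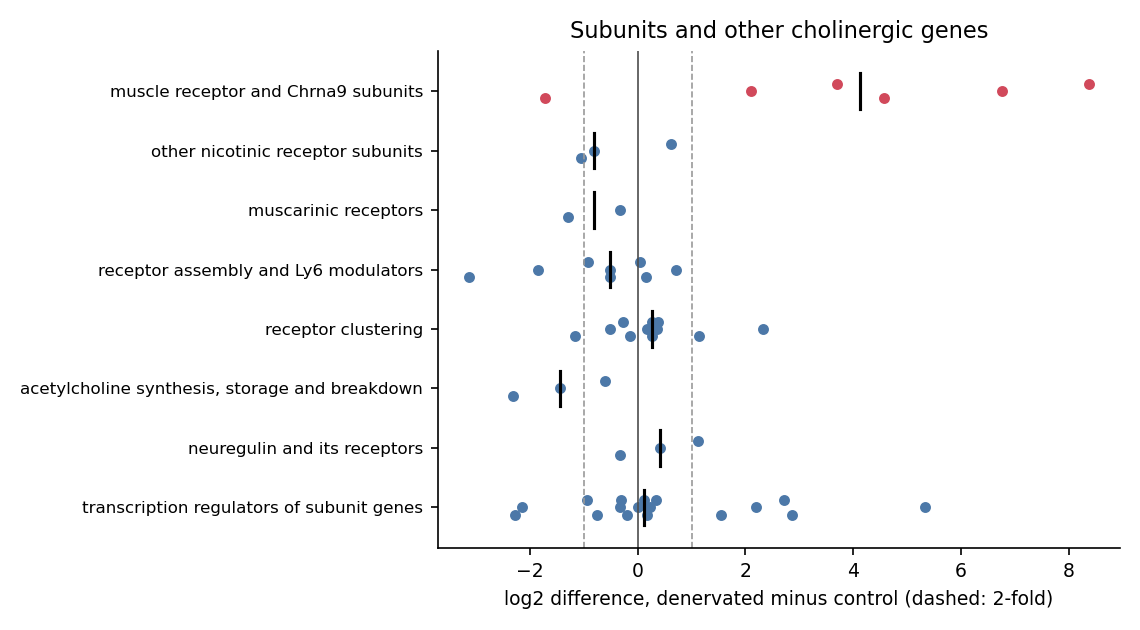
Log2 difference, denervated minus control, of the 6 members (red) and of the measured genes of 7 lists (blue), with list medians as black bars and dashed lines at 2-fold. The members' median is 4.13, and the list medians lie between -1.44 and 0.41.

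Genes listed as markers of other cell types also differed between the pools, and which cells expressed them was not tested. All 8 macrophage markers were measured and 7 were at least 2-fold higher by their brightest probes (Lyz2 1.48, Csf1r 1.33). By their lowest probes Csf1r (0.64), Fcgr1 (0.77) and Ptprc (0.74) were within 2-fold, while Lyz2 and Itgam passed it by every measured probe. Over all genes 6.93% were 2-fold higher and 8.59% lower. The summed macrophage signal, in units of the array's 75th percentile, was 17.6 in controls and 50.5 after denervation. Lyz2 set most of it, with signals of 12520 and 47250, where the next highest were 510 (Csf1r, control) and 1890 (Cd68, denervated). Such sums add levels of different probes, which are not comparable with each other, and follow the brightest markers. Of 9 Schwann cell markers 5 were 2-fold lower and 1 higher (Pmp22 -1.55, S100b -0.04), with sums of 13.7 and 7.74. Among 5 satellite cell markers Ncam1 alone passed 2-fold (3.33 by its brightest probe, -0.62 by the lowest of 8) and Cdh15 was at 0.89. The other 3 were lower within 2-fold (Pax7 -0.80, Vcam1 -0.44, Calcr -0.34), so that the list's median was -0.34 while its sums, set mostly by Cdh15 and Ncam1, were 5.75 and 15.8. Sums of the keratinocyte markers were 1.66 and 1.94 (Trp63 1.62, Krt10 -1.35 but -0.95 with spike-in scaling), and the other 4 of that list, Krt5 and Krt14 among them, stayed within 2-fold. T and B cell markers gave 0.576 and 0.398 (Cd3e -0.55, Cd79b -0.39), and neuron markers 0.177 and 0.102, with 2 of 6 measured (Stmn2 -0.72, Rbfox3 -0.98). The part of these cells in the subunit signals was not tested.

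**Figure D5:**
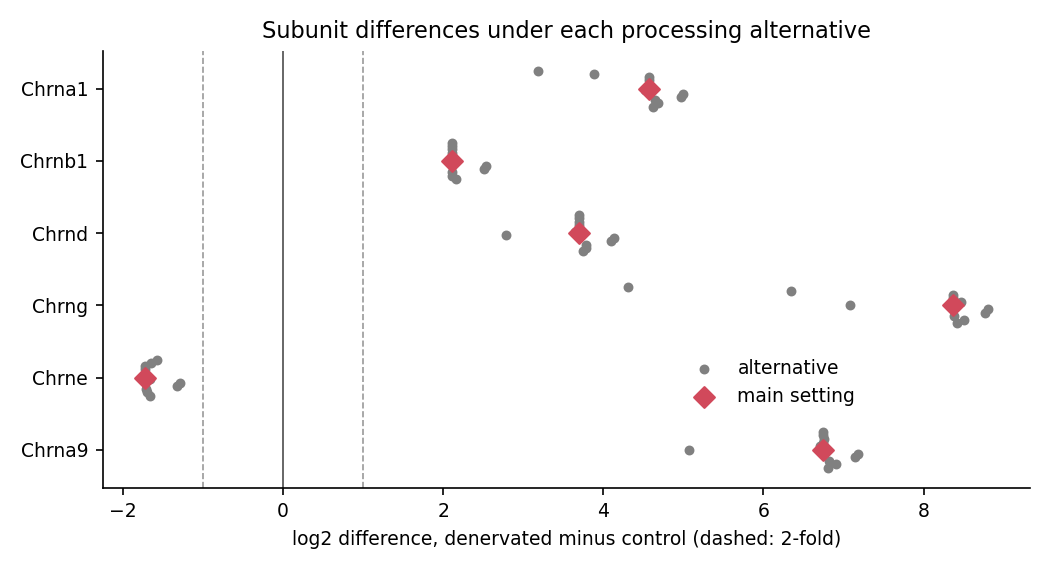
Log2 difference, denervated minus control, of each member in the main setting (red diamonds) and under each of 12 processing alternatives (grey points, spread vertically for display), with dashed lines at 2-fold. Chrng and Chrna9 have 11 grey points each, because a filter on dim signals dropped both. Chrng ranges from 4.31 to 8.80 and Chrne from -1.73 to -1.29, and no member crosses 2-fold.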

How the data were processed

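Arrays of Cy3-labelled RNA were read with Agilent Feature Extraction, in version 9.5 per the submitters' processing notes and 9.5.3.1 per the file headers. Per the file headers, background subtraction and spatial detrending of each deposited spot intensity were done array by array, with no scaling between arrays. The authors' deposited value table holds whole numbers, used as a score. Each score is the intensity over the array's 75th percentile, times 100, to within 0.0464% (SD of the ratio over 6590 control spots above a score of 300). Here, spots marked as outliers (87 and 81) were left out, spots of a probe were averaged on the log2 scale, and each array's 75th percentile over 41174 probes was subtracted. Genes took their brightest measured probe. Symbols came from RefSeq accessions (GRCm38.p6) for 23374 probes and otherwise from the files; Colq was matched through an older name. No test could be run on 1 array per group, so 2-fold was the threshold. Among 173 probes spotted at least 8 times, log2 differences had a median SD of 0.06; neither this nor the spot error (median 0.20) holds the spread between mice, and the number of arrays limits the precision. Members and lists were chosen with earlier results of these data known. Named were all member probes, list genes past 2-fold or with such a bound, the 2 brightest markers of each cell type and the 3 genes nearest to each member, 1 of which is not reported here; others were named after their values were seen. The calculation was tested on simulated data, where all probes of a gene changed alike and background calls were the same on both arrays. It was thus not tested on probes that disagree or that pass background on 1 array only. Alternatives used Python 3.11.15, and limma 3.58.1 under R 4.3.3 for normexp.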

Additional observations from a re-analysis of the deposited data

How the results depend on the processing

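Over 12 alternatives no member changed direction or crossed 2-fold where it was measured, although the filters can drop a member but left its value as it was, and probe choice cannot move Chrnb1 or Chrnd, with 1 probe each. Requiring 4 times the lowest detected signal dropped Chrng and Chrna9, whose control signals lie under that limit, and left 3 of 4 members at least 2-fold higher (median 2.90). The members' median was 4.53 with spike-in scaling, 4.56 unscaled, 3.65 with normexp background correction (offset 50), 3.79 with the mean of each gene's probes and 3.44 with the smallest-difference probe. The Chrng minus Chrne value was 8.74, 7.98 and 5.88 in the last 3 of these. With normexp, Chrng was at 7.08, Chrna9 at 5.07 and Chrnd at 2.78, all with dim control spots, to which the offset adds signal. Without a filter on dim probes, 16 list genes were 2-fold lower in place of 9, over 65 genes in place of 47; with spike-in scaling and unscaled, 10 were higher and 6 lower. By the smallest-difference probe Dtna stood at 0.80 and Ncam1 at -0.62, opposite to their brightest probes. The share of higher genes among all past 2-fold was 44.6%, or 77.7% with spike-in scaling and 79.8% unscaled, which move every gene up by 0.40 and 0.43. No paired analysis was possible because each group holds 1 array.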
